A study of Drosophila melanogaster with 5 samples.

Results

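Nuclei annotated as adult tracheal cells were 355 of 21371 nuclei in single-nucleus RNA-seq of the Drosophila Malpighian tubule (MT), the renal tubule of the fly. They were taken by the deposited cell type alone, whose name had to be exactly adult tracheal cells, and no level of a gene was used to choose them. They are called tracheal nuclei here. There were 30 in EGT > yki act, 67 in EGT > w1118, 186 in PCts > Pvr act, 11 in the PCts > Pvr RNAi-labelled library and 61 in PCts > w1118. The cell types had been assigned to clusters made from all genes, so that the level of a gene in tracheal nuclei against other nuclei is a description and not a test.

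EGT is esg-GAL4 with tub-GAL80TS, a temperature-controlled driver of cells that express escargot. Both EGT genotypes carried UAS-GFP, and EGT > yki act flies carried UAS-yki3SA as well, an active form of the transcriptional coactivator Yorkie that makes gut tumors. PCts is CG31272-GAL4 with tub-GAL80TS, a driver of principal cells (PCs), the main epithelial cells of the MT. PCts > Pvr act flies carried UAS-Pvr act, an active form of the PDGF/VEGF receptor Pvr, the PCts > Pvr RNAi-labelled library carried UAS-Pvr RNAi, and PCts > w1118 flies carried the driver alone. All flies were female and were induced at 29 °C, for 8 days in one field of the sample descriptions and 5 days in another. Each library pooled 90 pairs of MTs and each genotype had 1 library, so that no test between genotypes was possible, and neither driver is described as one of tracheal cells.

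The trachea is the respiratory organ of insects, a branched epithelial tube lined by a chitin cuticle that carries air to each organ, with fine branches lying on the MT and the gut. The transcription factor trachealess (trh) sets tracheal fate, and branches grow toward the FGF ligand Branchless (bnl), which binds the receptor Breathless (btl) and signals through the adaptor Stumps. Uninflatable (uif) is an apical transmembrane protein and Piopio (pio) a zona pellucida protein of the apical matrix, both needed to shape the tube.

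Tracheal nuclei held few unique molecular identifiers (UMIs, which count RNA molecules). The median was 909.5 UMIs per nucleus in EGT > yki act, 822 in EGT > w1118, 1565.5 in PCts > Pvr act, 610 in the PCts > Pvr RNAi-labelled library and 634 in PCts > w1118, against 1570 to 3941 in all other nuclei. The shallowest tracheal nucleus had 505 UMIs in PCts > Pvr act and between 231 and 362 in the other libraries, so that a cut on UMIs may have differed between PCts > Pvr act and its control. Ribosomal protein genes took 9.17% of tracheal UMIs in PCts > Pvr act and 20.8 to 27.2% in the other libraries, against 6.41 to 12.5% in other nuclei. In all, 53 barcodes occurred in 2 libraries, and 0 of them were tracheal. Pvr, the gene targeted in the PCts libraries, averaged 18.9 UMIs per 10,000 in tracheal nuclei of PCts > Pvr act, 4.89 (2 UMIs) in the PCts > Pvr RNAi-labelled library and 0.87 (8 UMIs) in PCts > w1118, and 27.2, 4.74 and 4.37 in their other nuclei. Pvr was therefore not lower in the PCts > Pvr RNAi-labelled library. GAL4 had 0 UMIs in tracheal nuclei of every library, which in the 186 nuclei of PCts > Pvr act allows a share of nuclei with a UMI of up to 1.61%. Such limits bound detection in nuclei of this depth, not expression.

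The 4 marker genes trh, btl, uif and pio set the annotated nuclei apart as a group, but most single nuclei held none of them. At least 1 marker UMI was found in 158 of 355 tracheal nuclei (44.5%, exact binomial 95% interval 39.3 to 49.8) at a median of 1107 UMIs, against 768 of 21016 other nuclei (3.65%) at a median of 2268 UMIs. Only 29 tracheal nuclei held 2 or more of the markers and 3 held 3 or more. The summed level of the 4 markers was 5.05 UMIs per 10,000 in EGT > yki act, 11.0 in EGT > w1118, 11.3 in PCts > Pvr act, 8.35 in the PCts > Pvr RNAi-labelled library and 6.21 in PCts > w1118, whereas other nuclei reached at most 0.328, in PCts > Pvr act. Of the 11.3 in PCts > Pvr act tracheal nuclei pio made up 8.64, with trh at 0.75 and btl at 0.38, so that the sum there is mostly pio. Intervals of counts and shares here cover counting error only.

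The 4 markers did not follow each other across libraries. The trh gene (FBgn0262139, 3L:366524-392633, BDGP6) averaged 2.58 UMIs per 10,000 in EGT > yki act, 3.25 in EGT > w1118, 0.75 in PCts > Pvr act, 1.91 in the PCts > Pvr RNAi-labelled library and 1.72 in PCts > w1118, from 9, 14, 22, 1 and 7 UMIs. The btl gene (FBgn0285896, 3L:14075772-14083229) averaged 0.87, 2.11, 0.38, 2.84 and 0.90 in the same order, from 3, 11, 10, 2 and 3 UMIs. These 2 genes, which define the tissue, thus had their lowest mean in PCts > Pvr act. The uif gene (FBgn0031879, 2L:6972828-7010359) stood the other way, with 38 UMIs in 24 of 186 nuclei of PCts > Pvr act (12.9%) and 0 to 2 UMIs in each other library. That share has to be read beside lower tubule PCs (Pvr-act) of the same library, where 11.4% of nuclei held a uif UMI at a median of 5151 UMIs. The pio gene had 280 UMIs in 69 nuclei of PCts > Pvr act, with a mean of 8.64, and its mean was 1.60 to 4.98 in the other libraries.

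**Figure D1:**
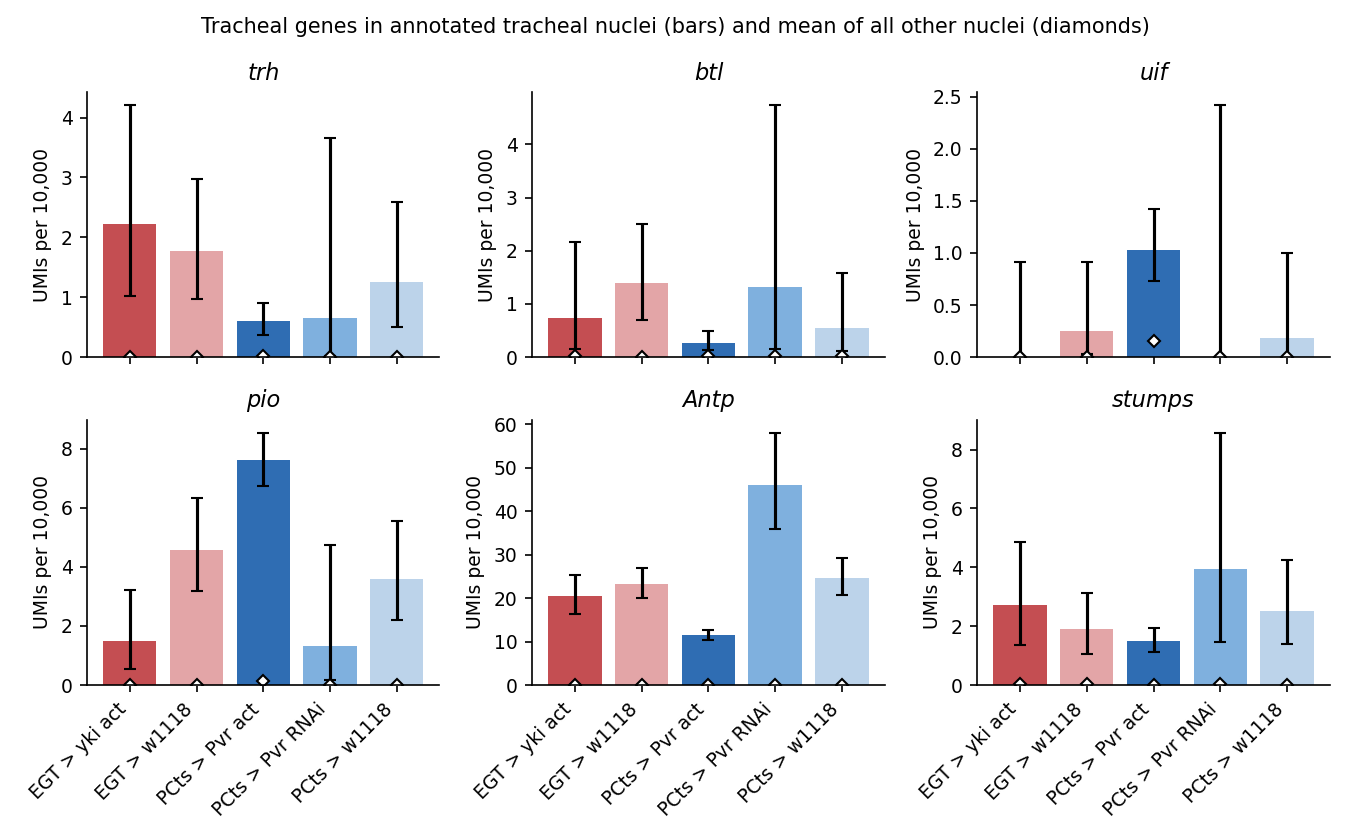
UMIs per 10,000 of the markers trh, btl, uif and pio, of the Hox gene Antp and of the FGF adaptor stumps in tracheal nuclei of each library. Bars are UMIs pooled over the tracheal nuclei with exact Poisson 95% intervals, and open diamonds are the mean over all other nuclei of the library; trh, btl and Antp are lowest in PCts > Pvr act, where uif and pio are highest.

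The genes that led tracheal nuclei most evenly over the libraries were 2 Hox transcription factors of the thorax and abdomen, Antennapedia (Antp, FBgn0260642, 3R:6896253-6999228) and Ultrabithorax (Ubx, FBgn0003944, 3R:16656623-16734426). Antp averaged 36.1 UMIs per 10,000 in EGT > yki act, 44.3 in EGT > w1118, 20.1 in PCts > Pvr act, 106 in the PCts > Pvr RNAi-labelled library and 37.4 in PCts > w1118, against 0.010 to 0.062 in other nuclei. It was found in 17 of 30, 34 of 67, 38 of 186, 10 of 11 and 26 of 61 tracheal nuclei in that order, so that it marked more of them than any of the 4 markers did in every library but PCts > Pvr act, where pio was in 69. Outside the tracheal nuclei the highest Antp mean of a cell type with at least 20 nuclei was 2.23, in visceral muscle of EGT > w1118. Ubx averaged 14.7, 16.04, 8.47, 41.4 and 18.0 in tracheal nuclei, but fat body nuclei of PCts > Pvr act reached 38.9.

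Among the 20 leading genes, ranked by the smallest log2 fold over other nuclei in the 4 libraries with at least 20 tracheal nuclei, were several that act in the tracheal tube and its cuticle. Antp had the highest smallest fold at 4.34, followed by Ubx at 2.76. They include snu, an ABC transporter of the cuticle barrier, wat, a fatty acyl-CoA reductase needed for gas filling, bond, a fatty acid elongase, Gasp, a chitin-binding protein of the tracheal lumen, sano, which limits tube length, and stumps. Gasp averaged 5.71 UMIs per 10,000 in EGT > yki act, 4.69 in EGT > w1118, 2.62 in PCts > Pvr act, 4.11 in the PCts > Pvr RNAi-labelled library and 4.89 in PCts > w1118. The list also holds the RNA-binding protein gene Rbfox1, the POU factor gene pdm3, the Bcl-2 family gene Buffy, and Jhbp14 and Jhbp7 of the juvenile hormone binding protein family. The POU factor gene vvl, which acts with trh in tracheal cells, is not among the 20 and averaged 5.35, 3.43, 1.36, 9.04 and 3.58.

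Sub-clustering of the 355 nuclei, done after their levels had been seen, split them into 6 groups, and the tracheal genes lay in only some of them. Sub-cluster 3 held 63 nuclei, at least 8 from each library but PCts > Pvr act, which gave 1. In it Antp averaged 106 UMIs per 10,000 and was found in 62 nuclei, trh averaged 5.36 in 20 nuclei, btl 2.52 in 11, stumps 9.11, vvl 8.70 and Gasp 9.41. All 6 of these means were the highest of any sub-cluster. Sub-cluster 5 held 44 nuclei, 42 of them from PCts > Pvr act, with Antp at 75.0 in 23 nuclei, trh at 2.05 in 7 and btl in 2. Its first-ranked genes were the iron-binding transferrin gene Tsf1 at 30.3 and EbpIII at 64.4, with a UMI in 36.4% and 31.8% of its nuclei. Of their UMIs in tracheal nuclei of PCts > Pvr act, 86.4% and 59.8% lay in 1 nucleus for each gene, so that these means do not describe most of the group. The virus-induced gene vir-1 was at 60.2 in 86.4% of nuclei.

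Of the other 4 groups, sub-cluster 6 also held trh and Antp in most of its nuclei, while sub-clusters 1, 2 and 4 had them in few or 0. Sub-cluster 1 (99 nuclei, 0 from PCts > Pvr act) was led by Muc11A at 45.9 and held Mur18B at 233, CG14292 at 167 and the alkaline phosphatase gene Alp2 at 99.8, with 2.04% mitochondrial UMIs. Antp was found in 26 of its nuclei and trh in 4. The same genes were at 132, 83.8 and 73.8 in sub-cluster 3, so that they did not separate these groups cleanly.

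Sub-cluster 2 (89 nuclei, all from PCts > Pvr act) was led by the netrin receptor gene fra at 59.1 and the junction protein gene bbg at 22.9, and held the insulin receptor gene InR at 74.2 and the PC transcription factor gene ct at 30.3. It had trh in 2 nuclei and Antp in 1, and btl and stumps in 0 of 89, which allows a share of nuclei with a UMI of up to 3.37%. The marker uif, however, was at 2.06 in sub-cluster 2, from 25 UMIs in 14 nuclei, and snu was at 5.16 in 37 nuclei. Sub-cluster 6 (14 nuclei, all from PCts > Pvr act) had ct at 90.4 and the regeneration gene rgn at 156 beside Antp in 13 nuclei and trh in 8, at a median of 2874.5 UMIs. It thus held genes of PCs and of tracheal cells in the same barcodes. No removal of doublets was stated for these data and no caller was run, and the part of doublets was not tested.

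Sub-cluster 4 (46 nuclei, 40 from PCts > Pvr act, 4 from EGT > w1118 and 2 from PCts > w1118) was led by CG45080 at 141, lcs at 123 and whe at 111. It also held Pgant9, a glycosyltransferase gene of mucin-type glycans, at 69.6 in all 46 nuclei, the maltase gene Mal-B1 at 41.7 and the carbonic anhydrase gene CAH1 at 54.7. Its pio level of 32.3, in 39 nuclei, was the highest of the sub-clusters, from 264 UMIs against 9 to 26 in each other one. The genes trh, btl and Antp were in 0 of its 46 nuclei, which allows a share of nuclei with a UMI of up to 6.52%. For trh and btl this says little, since even in sub-cluster 3 they were found in 31.7% and 17.5% of nuclei, whereas Antp was found there in 98.4%. Antp thus went with the label in sub-clusters 3 and 6 and in part of sub-clusters 5 and 1, but was not detected in sub-cluster 4 and was in 1 nucleus of sub-cluster 2. The sub-clusters are called here by number and by their leading genes.

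**Figure D2:**
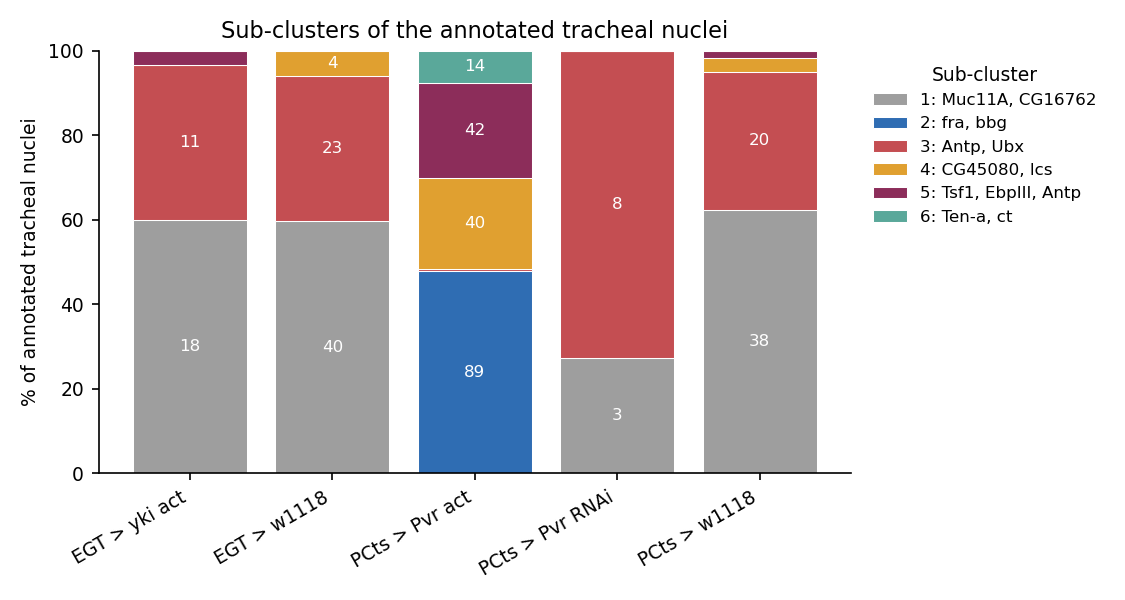
Percent of the tracheal nuclei of each library in the 6 sub-clusters, named by leading genes, with the number of nuclei printed in segments over 5%. Sub-clusters 1 and 3 make up most tracheal nuclei in all libraries but PCts > Pvr act, which consists of 89 nuclei of sub-cluster 2, 40 of 4, 42 of 5, 14 of 6 and 1 of 3.

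**Figure D3:**
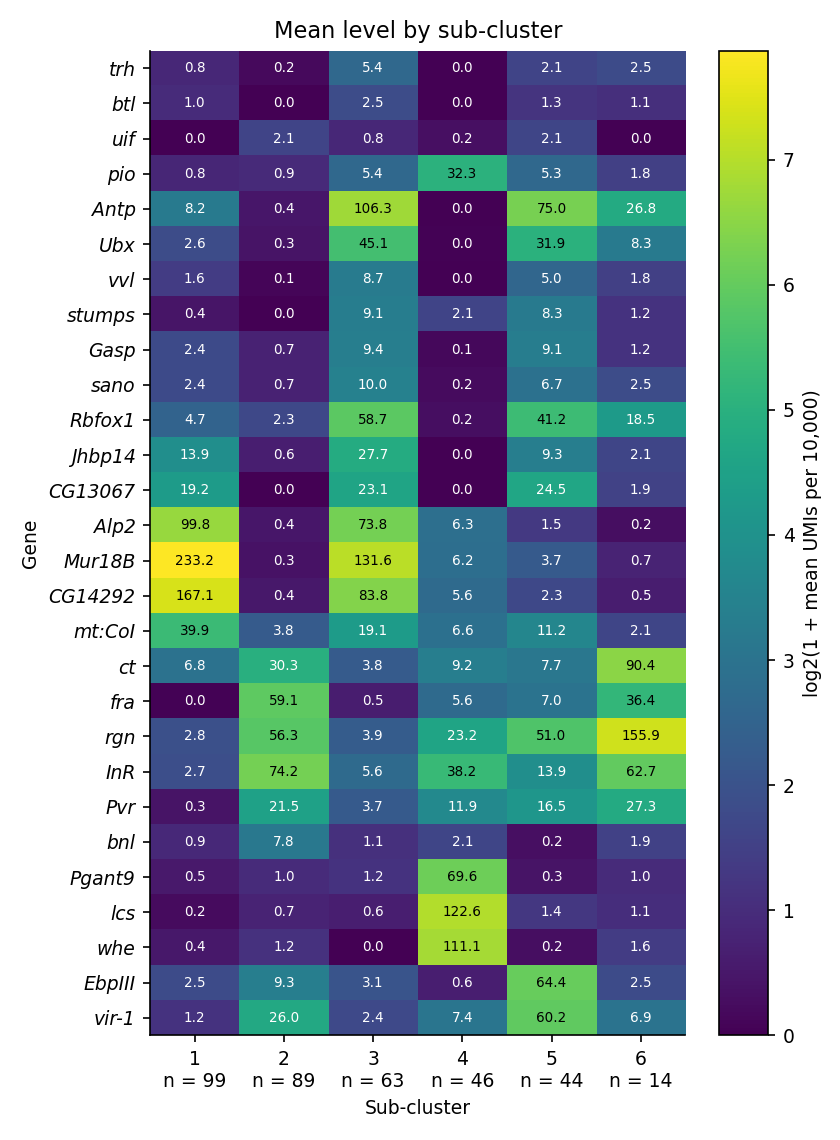
Mean UMIs per 10,000 of 28 genes, printed in each cell and colored on a log2(1 + mean) scale, in the 6 sub-clusters, with the number of nuclei under each column. Antp is highest in sub-clusters 3 and 5, at 106 and 75.0, trh is at 5.36 in 3, 2.50 in 6 and 2.05 in 5, pio is highest in 4, and ct in 6, where Antp is at 26.8.

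Across 3305 genes the mean profile of sub-cluster 2 was most like that of lower tubule PCs (Pvr-act) of the same library (Spearman rho = 0.89), and sub-cluster 6 was most like lower segment PCs (Pvr-act) (rho = 0.87). Sub-cluster 1 was most like renal stem cells in EGT > w1118 (rho = 0.79) and in PCts > w1118 (rho = 0.75). In EGT > yki act it was most like nuclei annotated as principal cells-like (rho = 0.75). In sub-cluster 3 the best rho was 0.52 in EGT > yki act, 0.54 in EGT > w1118 and 0.58 in PCts > w1118, so that its profile was the least like any other cell type of those compared. These are correlations across genes, which are not replicates, and profiles of few and shallow nuclei correlate less.

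Taken whole, tracheal nuclei were a smaller share of EGT > yki act and of the PCts > Pvr RNAi-labelled library than of the controls, and the same share of PCts > Pvr act. They were 0.824% of nuclei in EGT > yki act (exact 95% interval 0.557 to 1.17) against 1.98% in EGT > w1118 (1.54 to 2.51), a log2 ratio of -1.27 (-1.94 to -0.62). They were 1.99% in PCts > Pvr act (1.71 to 2.29) and 0.559% in the PCts > Pvr RNAi-labelled library (0.279 to 0.997), against 2.02% in PCts > w1118 (1.55 to 2.59). The log2 ratio was -0.03 (-0.45 to 0.41) for PCts > Pvr act and -1.86 (-2.93 to -0.92) for the PCts > Pvr RNAi-labelled library, and that of EGT > w1118 against PCts > w1118 was -0.03 (-0.55 to 0.50). A share falls when nuclei of other types are more numerous, and fewer tracheal cells cannot be told apart from more of the rest or from losses in preparation. With nuclei of at least 500 UMIs only, a limit chosen after the data were seen because PCts > Pvr act holds none below it, the log2 ratios were -1.16 for EGT > yki act, 0.17 for PCts > Pvr act and -2.04 for the PCts > Pvr RNAi-labelled library.

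The share in PCts > Pvr act depended on which of the nuclei that carry the tracheal genes were taken. Sub-clusters 3 and 5, whose Antp mean was over 50, are called Antp-led, and 62 of 63 and 23 of 44 of their nuclei had an Antp UMI. This limit left out sub-cluster 6, whose Antp mean was 26.8. Antp was in 13 of its 14 nuclei, all from PCts > Pvr act, so that the Antp-led shares of that library miss them. In PCts > Pvr act 24 of the 43 Antp-led nuclei had an Antp UMI. The other 19 had 0 UMIs of trh, btl and stumps and 89.8% of their EbpIII UMIs in 1 nucleus. For all Antp-led nuclei the log2 ratio of PCts > Pvr act against PCts > w1118 was -0.60 (-1.39 to 0.23), and -0.55 (-1.41 to 0.37) with at least 500 UMIs, so that both intervals hold 0. Antp-led nuclei with an Antp UMI were 0.256% of PCts > Pvr act (0.164 to 0.381) against 0.663% of PCts > w1118 (0.406 to 1.02), a log2 ratio of -1.37 (-2.29 to -0.44). With at least 500 UMIs it was -1.30 (-2.29 to -0.27). In EGT > yki act they were 0.302% against 0.651% in EGT > w1118, with a log2 ratio of -1.11 (-2.30 to -0.00) that was -0.54 (-1.91 to 0.80) at 500 UMIs or more. They were 0.406% of the PCts > Pvr RNAi-labelled library, a log2 ratio of -0.71 (-2.10 to 0.54). All tracheal nuclei with an Antp UMI, sub-cluster 6 included, were 0.406% of PCts > Pvr act (0.287 to 0.556). In PCts > w1118 all such nuclei were 0.862% (0.564 to 1.26). These groups were set after the data were seen, and at a coarser resolution of 0.3 the Antp-led nuclei were 35, all from PCts > Pvr act, so that the groups depend on the clustering.

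**Figure D4:**
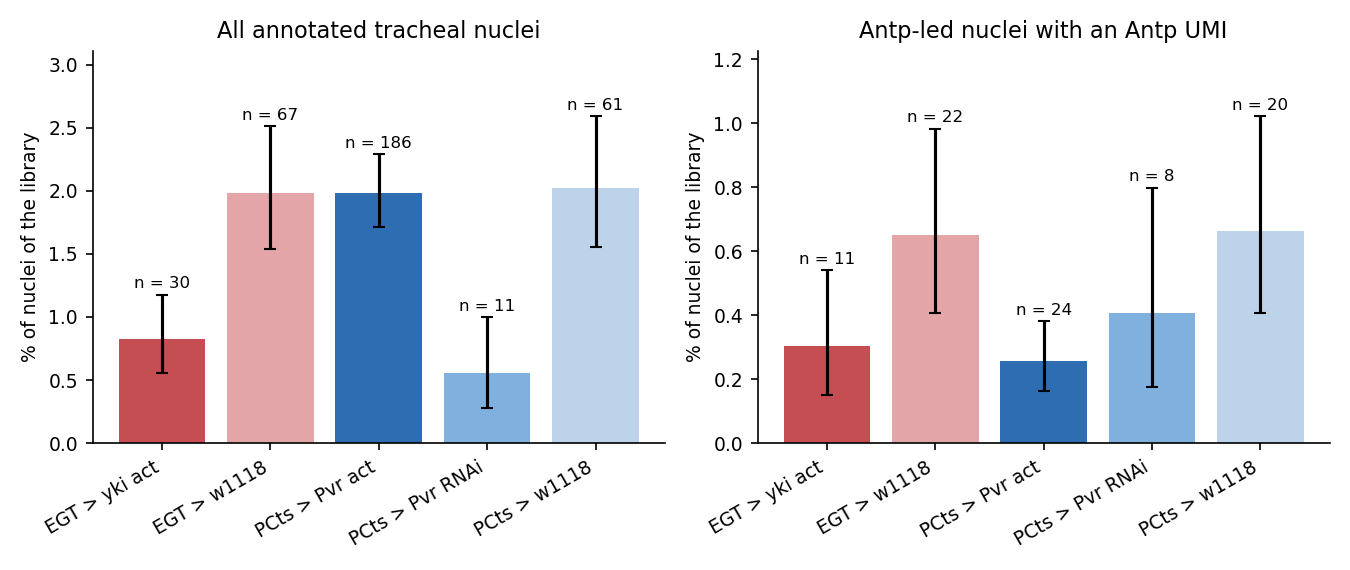
Percent of the nuclei of each library that were annotated tracheal nuclei (left) and Antp-led nuclei with an Antp UMI (right), with exact binomial 95% intervals and the number of nuclei. PCts > Pvr act has the same share as PCts > w1118 on the left, with 1.99 and 2.02%, and a lower one on the right, with 0.256 and 0.663%. Nuclei of sub-cluster 6, all from PCts > Pvr act and most with an Antp UMI, are not counted on the right.

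Levels were then compared within tracheal nuclei as log2 fold changes of mean UMIs per 10,000 with a pseudocount of 1, which understates changes of low genes. A gene was compared if it had a UMI in at least 10% of tracheal nuclei of either library and at least 20 UMIs in both together, and was past the fold at an absolute log2 fold change of 1. The 2 control libraries differed past the fold at 69 of 1122 genes (6.15%), 29 higher in EGT > w1118 (2.58%) and 40 lower (3.57%), with a median absolute difference of 0.36. The library labelled PCts > Pvr RNAi held too few tracheal nuclei, under 20, for such a comparison.

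In EGT > yki act tracheal nuclei 141 of 933 genes were past the fold from EGT > w1118 (15.1%), beside 6.15% between the control libraries. Of these genes 58 were higher (6.22%) and 83 lower (8.9%). All 20 leading genes were compared, 0 were higher and 1 was lower, and their median was -0.29, beside -0.05 over all genes. The lower one was CG13067, with 5.59 UMIs per 10,000 in EGT > yki act and 28.1 in EGT > w1118 (log2 fold change -2.14). Antp was at 36.1 and 44.3, and trh at 2.58 and 3.25, and neither was past the fold. The means of all 4 markers were lower in EGT > yki act, with a summed level of 5.05 against 11.0 in EGT > w1118. They rest on few UMIs, such as 0 and 2 of uif and 3 and 11 of btl. Pooled over nuclei trh went the other way, with 9 of 40517 UMIs in EGT > yki act and 14 of 78830 in EGT > w1118. Of the 141 genes, 126 had the same sign in all other nuclei of these libraries and 53 were past the fold there too. Without the nucleus with the highest level of each gene, 92 of the 141 genes stayed past the fold, which was a check chosen after the data were seen.

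The genes named next were at least 2 times higher in tracheal nuclei than in others in the library where they were higher, so that the change itself helped to choose them. The highest was CG14245, with 93.8 UMIs per 10,000 in EGT > yki act and 9.57 in EGT > w1118 (log2 fold change 3.17). It moved with all nuclei, since it was at 44.2 and 8.38 in the others, and 306 of its 671 tracheal UMIs in EGT > yki act lay in 1 nucleus. The fatty acid elongase gene Elovl7 was at 11.1 and 1.93 (2.05), and at 1.16 without its top nucleus. MtnA, a metallothionein gene, was at 118 and 51.5 (1.18), and the ribosomal protein gene RpL41 at 35.2 and 14.8 (1.19). RpL41 also differed in other nuclei, by 1.22.

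Of the lower genes, trol, which encodes the basement membrane protein perlecan, was at 3.02 in EGT > yki act and 12.02 in EGT > w1118 (log2 fold change -1.70), while it differed by 0.30 in other nuclei. The genes lcs, whe, CG45080 and CG16826 had 0 UMIs in EGT > yki act and 261, 218, 205 and 191 UMIs in EGT > w1118, at least 44.7-fold, 37.3-fold, 35.1-fold and 32.7-fold lower against a floor of 3 UMIs per library. Here and below, folds against this floor count UMIs as independent, so that they are no bound where few nuclei hold the UMIs. In EGT > w1118 the UMIs of these 4 genes came from 8, 7, 9 and 10 nuclei. The same 4 genes lead sub-cluster 4, which held 0 nuclei of EGT > yki act and 4 of EGT > w1118. CG15353 had 0 UMIs in EGT > yki act and 34 in EGT > w1118, at least 5.83-fold lower, from 7 nuclei, with 19 of the 34 UMIs in 1 nucleus. The other named genes past the fold were Nlp, CG14401, CG17839, CG34198, CG13551 and fax, higher in EGT > yki act, and CG40486, CG34456 and CG17896, lower. Without their top nucleus CG17839 (0.47), fax (0.74), CG34198 (0.87) and CG13551 (0.98) were within the fold.

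The gene lists of tracheal biology had few members with enough UMIs to compare, and their counts are read beside the 15.1% of all genes past the fold. None of the 2 transcription factors compared, of 5 FGF pathway genes, of 6 pleated septate junction genes or of 6 tube shape genes was past the fold. In the list of apical matrix genes pio was lower, with 1.60 in EGT > yki act and 4.98 in EGT > w1118 (log2 fold change -1.20), and -0.94 without its top nucleus. The JNK phosphatase gene puc was lower (-1.12) and the smooth septate junction gene mesh higher (1.25), but neither stayed past the fold without 1 nucleus. Both of the 2 Hippo pathway genes compared, Diap1 among them at -0.87, were within the fold.

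In PCts > Pvr act tracheal nuclei, by contrast, many genes were past the fold, and 5 of the 20 leading tracheal genes were among the lower ones. Of 2431 genes, 815 were past the fold (33.5%), 490 higher (20.2%) and 325 lower (13.4%). Since the median gene was 0.36 higher, centring on it gave 269 higher and 490 lower, so that the share higher was 60.1% as it stands and 35.4% centred. Of the 20 leading genes 5 were lower and 1 was higher, with a median of -0.67. The lower ones were Jhbp14 (-2.64), Jhbp7 (-1.84), CG13067 (-1.63), sano (-1.16) and Ubx (-1.01), and Antp was at -0.86. Jhbp14 was at 2.64 UMIs per 10,000 in PCts > Pvr act and 21.7 in PCts > w1118.

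The higher leading gene was EbpIII, with 20.03 in PCts > Pvr act and 2.36 in PCts > w1118 (log2 fold change 2.65). Of its 513 UMIs in PCts > Pvr act 307 lay in 1 nucleus, and without it the log2 fold change was 1.11. Tsf1 had 767 UMIs in PCts > Pvr act and 0 in PCts > w1118, at least 38.6-fold higher, but 663 of them lay in 1 nucleus. Both genes led sub-cluster 5. Without the top nucleus of each gene, 716 of the 815 genes stayed past the fold.

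Most of the genes past the fold went the same way in other nuclei of the same libraries. This held for the sign of 714 of the 815 genes, and 374 were past the fold in both. The genes named next were chosen by the same rule as those of EGT > yki act. The long noncoding RNA lncRNA:CR34335 was at 565 UMIs per 10,000 in PCts > Pvr act and 51.5 in PCts > w1118 (3.43), and at 248 and 37.7 in other nuclei. The junction gene bbg was at 12.2 and 0.61 (3.04) and norpA, a phospholipase C gene, at 9.51 and 0.54 (2.77). CG7695 had 222 UMIs in PCts > Pvr act and 0 in PCts > w1118, at least 11.2-fold higher. CR34335, bbg and CG7695 were among the leading genes of sub-cluster 2, at 924, 22.9 and 11.4.

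Of the named lower genes Muc11A, CG16762 and CG32695 were among those that led sub-cluster 1, which held 0 nuclei of PCts > Pvr act. Muc11A, a mucin gene, was at 0.09 UMIs per 10,000 in PCts > Pvr act and 35.3 in PCts > w1118 (-5.06), from 3 and 186 UMIs. COX7A, of the mitochondrial cytochrome c oxidase, was at 1.45 and 14.5 (-2.66). CG15353 had 0 UMIs in PCts > Pvr act and 40 in PCts > w1118, at least 88.4-fold lower, while it was near 0 in other nuclei of both libraries. Of these 40 UMIs 17 lay in 1 nucleus. The other named genes were Pvf2, Mal-B1, lncRNA:CR40469 and Pino, higher, and CG32695, CG16762, CG32024, CG8012, CG34284 and CG32444, lower. Mal-B1, at 2.43, was at 0.65 without sub-cluster 4.

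The counts of gene lists that follow are read beside the 20.2% of all genes that were higher and the 33.5% past the fold. Tracheal nuclei held 368047 UMIs in PCts > Pvr act and 55499 in PCts > w1118, so that a gene could pass the filter through PCts > Pvr act alone. This was so at least for Pvf2, Pvf3, mbc, uif and all 5 higher immune genes. Other higher members of the lists below that had too few UMIs in PCts > w1118 to pass there were Ldh, chrb, Lac, cora, crb and Abl. The same holds for Col4a1, Hsp23, Hsp27, Hsp68, Eip74EF, ImpL2 and Myc. The filter thus tilts the counts of most of these lists toward higher genes. Of 6 PDGF/VEGF signaling genes compared, 5 were higher and 0 lower, with a median of 1.52 beside 0.36 over all genes. The receptor gene Pvr was at 18.9 UMIs per 10,000 in PCts > Pvr act and 0.87 in PCts > w1118 (3.41), but it was also at 27.2 and 4.37 in other nuclei, and reads of the transgene cannot be told apart from those of the gene. The ligand gene Pvf2 had 156 UMIs in PCts > Pvr act and 0 in PCts > w1118, at least 7.84-fold higher, and Pvf3 (1.67), Pvf1 (1.08) and mbc (1.37), a guanine nucleotide exchange factor gene downstream of Pvr, were higher as well.

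FGF pathway genes were past the fold at 2 of 9, both higher, which is near the share of all genes, with a median of 0.77. The ETS factor gene pnt was at 6.26 in PCts > Pvr act and 1.97 in PCts > w1118 (1.29). The ligand gene bnl was at 4.34 and 1.21 (1.27), at 0.77 without its top nucleus, and in sub-cluster 2 it was at 7.83, against 1.13 in sub-cluster 3. The adaptor gene stumps was at 2.61 and 3.37 (-0.28). Of 5 tracheal transcription factor genes compared 1 was past the fold, pnt, also near that share, and vvl was at -0.96.

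JNK and AP-1 genes were higher at 4 of 6, with a median of 1.14. They were puc (2.26), the Fos gene kay (1.48) and the matrix metalloproteinase genes Mmp2 (1.22) and Mmp1 (1.07). Basement membrane and integrin genes were higher at 4 of 7, among them the integrin genes mys (2.70), if (2.16) and mew (1.74). Apical matrix genes were higher at 3 of 5, the giant matrix protein gene dpy (2.11), uif (1.20, from 38 UMIs in PCts > Pvr act and 1 in PCts > w1118) and pio (1.10), while Gasp was at -0.70. Pleated septate junction genes were higher at 5 of 13, with Nrg at 3.11 and Fas3 at 2.17, and the sodium pump gene Atpalpha was lower at -1.27. Tube shape and polarity genes were higher at 5 of 10, such as the spectraplakin gene shot (1.90) and baz (1.63), and sano was the lower one.

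Hypoxia genes were higher at 3 of 5, the REDD1 homologs scyl (1.39) and chrb (1.42) and the lactate dehydrogenase gene Ldh (1.24), and the HIF gene sima was at 0.17. Glycolysis genes had 1 higher and 1 lower of 12, with a median of -0.31. Heat shock genes were higher at 6 of 7, among them Hsp26 (2.86) and Hsp83 (1.45), and Hsp27 had 294 UMIs in PCts > Pvr act and 0 in PCts > w1118, at least 14.8-fold higher. Immune genes were higher at 5 of 7, ecdysone response genes at 3 of 6 with Eip93F at 2.20, insulin signaling genes at 2 of 6 with InR at 3.02, and Hippo pathway genes at 2 of 5. The immune genes Tl and cact and the ecdysone response gene Eip74EF were within the fold without their top nucleus. All these counts come from nuclei of which 89 of 186 belong to sub-cluster 2, where trh, btl, Antp and stumps were near 0. Other nuclei of PCts > Pvr act held more puc (19.5), mys (24.0) and Nrg (23.7) than its tracheal nuclei (14.6, 13.2 and 18.1), but less dpy (0.58 against 7.87) and Eip93F (24.9 against 37.0). In Antp-led nuclei the list medians were 0.13 for JNK and AP-1, 0.04 for apical matrix and 0.23 for pleated septate junction genes, beside 0.24 over all genes. Other lists lay above it, such as basement membrane genes at 0.56.

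When only Antp-led nuclei with an Antp UMI were compared, 24 of PCts > Pvr act and 20 of PCts > w1118, the leading tracheal genes had a median near that of all genes. The nuclei were chosen by sub-clusters that these genes set apart and by Antp itself, so that like levels of the leading genes are largely fixed by the choice. They held 22847 and 14513 UMIs, and 104 of 361 genes were past the fold (28.8%), 62 higher (17.2%) and 42 lower (11.6%). Of 19 leading genes compared, 2 were higher, the CD36 family gene Snmp1 (1.14) and CG41520 (1.10), and 1 was lower, Jhbp14, at 13.6 UMIs per 10,000 in PCts > Pvr act and 38.6 in PCts > w1118 (-1.44). Their median was 0.27, beside 0.20 over all genes. Ubx was at 0.15, Rbfox1 at 0.47, vvl at 0.12, stumps at 0.57, Gasp at -0.29, sano at -0.15 and snu at -0.29. Antp, which chose these nuclei, was at 139 and 99.6 UMIs per 10,000. With the Antp-led nuclei that had no Antp UMI added, 223 of 641 genes were past the fold (34.8%), 148 higher (23.1%) and 75 lower (11.7%). Without the top nucleus of each gene, 78 of the 104 genes stayed past the fold.

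Of these 104 genes 91 had the same sign in other nuclei and 70 were past the fold there as well (67.3%). Pvr itself was at 14.5 UMIs per 10,000 in PCts > Pvr act and 1.34 in PCts > w1118 (2.73), below the 27.2 of other PCts > Pvr act nuclei. The JAK-STAT feedback gene Socs36E was at 15.6 and 1.17 (2.94) and the capsid gene Arc1 at 22.03 and 1.15 (3.42), both near the level of other PCts > Pvr act nuclei, 25.6 and 19.9. The alkaline phosphatase gene Alp2 had 0 UMIs in PCts > Pvr act and 157 in PCts > w1118, where it was at 104 in these nuclei and 95.4 in the others. Levels of these genes thus moved with those of the other nuclei, and the part of free RNA in them was not tested.

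A few genes past the fold in these nuclei stood apart from the other nuclei. Pka-R2, a regulatory subunit gene of protein kinase A, was at 36.3 UMIs per 10,000 in PCts > Pvr act and 9.50 in PCts > w1118 (1.83), and at -0.12 in other nuclei. The phosphodiesterase gene Pde8 was at 10.7 and 3.07 (1.52), from 19 and 4 UMIs, and at -1.26 in other nuclei. CG17834 was at 10.5 and 1.49 (2.20) and at -0.67 in the others. The Krüppel-like factor gene luna was at 9.90 and 24.5 (-1.22), where it was 3.31 higher in other nuclei of PCts > Pvr act. CG15353 was again at 0 UMIs in PCts > Pvr act and 28 in PCts > w1118, at least 14.7-fold lower. These genes were picked after their values were seen.

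**Figure D5:**
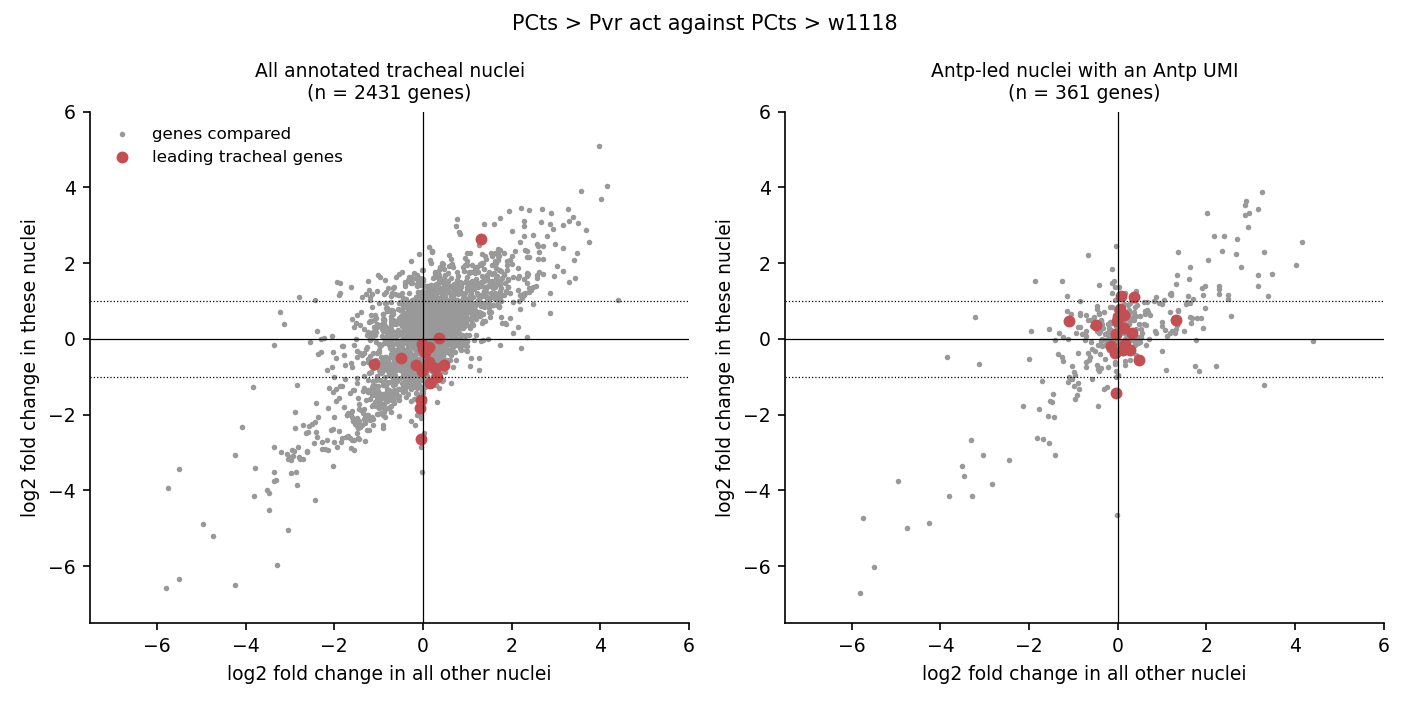
Log2 fold change of PCts > Pvr act against PCts > w1118 in tracheal nuclei (vertical) against that in all other nuclei (horizontal), for all tracheal nuclei with 2431 genes (left) and for Antp-led nuclei with an Antp UMI with 361 genes (right). Red points are the leading tracheal genes, dotted lines mark a log2 fold change of 1 and -1; on the left red points lie mostly below 0, with a median of -0.67, and on the right around 0, with a median of 0.27.

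Of the markers of other cell types annotated in these data, those of PCs came nearest to the level in their own cell type, with those of renal stem cells outside EGT > yki act. The 5 PC markers summed to 24.0 UMIs per 10,000 in EGT > yki act, 24.5 in EGT > w1118, 31.0 in PCts > Pvr act, 30.8 in the PCts > Pvr RNAi-labelled library and 32.1 in PCts > w1118, against 118 in PC nuclei. All other nuclei of each library held more of them, 63.1 to 82.7. The PC markers differed in kind, since ct was at 25.5 in PCts > Pvr act and 8.69 in PCts > w1118, and Uro, the urate oxidase gene, at 0.23 and 15.3. The 8 visceral muscle markers summed to 0.679 to 3.60, against 196 in visceral muscle, with up at 0, and the 7 fat body markers to 0.158 to 2.13, against 153 in fat body, with Yp3 at 0. The 5 hemocyte markers were at 4.50 in PCts > Pvr act, where other nuclei held 12.2, and at 0 in the other 4 libraries. The 4 stellate cell markers summed to 2.95 to 6.73, 4 of the 5 enterocyte markers were at 0, and repo of glia and Syt1 of neurons were at 0. The 2 renal stem cell markers measured summed to 0 in EGT > yki act, 0.398 in EGT > w1118, 1.46 in PCts > Pvr act, 1.23 in the PCts > Pvr RNAi-labelled library and 1.99 in PCts > w1118, against 4.36 in renal stem cells.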

How the data were processed

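Nuclei of 5 MT libraries, 1 per genotype, were profiled by droplet single-nucleus RNA-seq with 3' UMI counting after sorting. The authors counted UMIs with Cell Ranger 7.0.0 on BDGP6, per the labels, normalized, integrated and clustered them with Seurat and Harmony, annotated 17 cell types, 3 of them outside the MT, and deposited for each gene and nucleus the natural log of its UMIs per 10,000 plus 1. Filters on nuclei and doublet removal are not given in the sources used here. Counts were recovered as whole numbers in all nuclei. Gene names came from an Ensembl annotation of BDGP6, which matched 16447 of 16495 identifiers, and coordinates are those of whole annotated genes.

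Means over nuclei were compared as described with the results. Shares carry exact binomial (Clopper-Pearson) 95% intervals, pooled counts exact Poisson intervals and ratios exact conditional binomial intervals. Depth of tracheal nuclei ranged from 15220 to 368047 UMIs per library. Sub-clusters were made with scanpy 1.11.5 (1500 variable genes, 15 principal components, 15 neighbors, Leiden resolution 0.5). Named genes were the 20 leading genes and, in each comparison, up to 10 genes with the highest and 10 with the lowest log2 fold change among those past the fold, of the same sign against both controls and at least 2 times higher in tracheal nuclei than in others, in the library where the gene was higher. Further genes were list members or chosen after their values were seen. Steps were tested on simulated counts, drawn from the pooled profile of the control at the depth of each nucleus. These had no sub-clusters and no outlying nuclei, so that they cannot show how either affects the results. The members and gene lists were chosen with earlier results of these data known. Alternatives are given in the closing section. Python 3.11.15, numpy 2.4.6, scipy 1.17.1, pandas 2.3.3 and matplotlib 3.10.9 were used.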

Additional observations from a re-analysis of the deposited data

Results flagged for a closer look

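EGFP, the feature of the UAS-GFP transgene that both EGT genotypes carried, lay outside the comparisons but had a signal in tracheal nuclei of EGT > w1118, with a mean of 0.550 UMIs per 10,000 from 3 UMIs in 3 of 67 nuclei. It was at 0.0536 in the other nuclei of that library and at 0.0021 in those of EGT > yki act, and had 0 UMIs in tracheal nuclei of the other 4 libraries.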

How the results depend on the processing

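The lower share of tracheal nuclei in EGT > yki act kept its direction under all 8 alternatives run. For PCts > Pvr act the log2 ratio of -0.03 was -0.60 with Antp-led nuclei only, with an interval of -1.39 to 0.23, -1.09 with all tracheal nuclei that had an Antp UMI and -1.37 with Antp-led nuclei that had one, and for the PCts > Pvr RNAi-labelled library -1.86 became -0.78, -0.76 and -0.71. These 3 were chosen with the data in view. The count of 141 genes in EGT > yki act was 234 with a pseudocount of 0.1, 437 with no filter on low genes, 64 with nuclei thinned to 500 UMIs, where fewer genes were compared, 29 with genes at least 2 times higher in tracheal nuclei, taken in the library where the gene was higher, and 92 without the top nucleus of each gene. The count of 815 in PCts > Pvr act was 1435 with a pseudocount of 0.1, 527 thinned and 152 with such genes. It was 415 with nuclei that had an Antp UMI, 223 with Antp-led nuclei and 104 with those that had an Antp UMI, all from fewer genes and nuclei. The summed marker level, pooled over nuclei, was 7.99 in EGT > w1118 and 9.51 in PCts > Pvr act, and 31.2% of nuclei in PCts > Pvr act held a marker UMI after thinning to 500 UMIs. Among the leading genes Ubx went to 0.15, against -1.01, and CG13067 to 0.11, against -1.63, in Antp-led nuclei with an Antp UMI.

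Genes with 0 UMIs in 1 library were 166 of the 2431 compared in PCts > Pvr act, and with these at their bound the median was 0.33 and 485 genes were higher. Tracheal nuclei were few and shallow, and at 11 nuclei the PCts > Pvr RNAi-labelled library gave only shares and levels. No paired analysis was possible because each genotype had 1 library.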
